A study of Homo sapiens with 12 samples.

Results

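Induced pluripotent stem cells (iPSCs) of the established human line 201B7, labelled as derived from skin, were compared after culture in heated medium and in control medium. The comparison took 6 of the 12 RNA-Seq libraries of the study, the 3 that the labels give as Cond 2 and the 3 they give as Cond 1. Cond 1 was the control culture in StemFit. In Cond 2, labelled Low nutrient, the StemFit had been kept at 56 °C for 30 min before use. Cond 3 (DMEM with 10% FBS) and Cond 4 (cells pipetted 20 times at passage) are given only where they show how Cond 2 differed. By the study's account the heated medium was given earlier in culture than the FBS medium. Cond 2 and Cond 3 may therefore differ in length of exposure as well as in medium. All cells were of this 1 line, and harvest was on Day 5. A plate held a single well of each condition and the whole setup was run in triplicate. Whether a replicate number marks a shared plate or run is not given in the sources used here. The study calls the replicates technical, so the p-values measure the spread between these libraries, which may be technical. Total counts per library were 16690487 to 19935360 in Cond 1 and 18142616 to 21678335 in Cond 2. Levels are given as TPM, the share of all transcripts after scaling for gene length, and fold changes as log2 values ± SE from edgeR's quasi-likelihood test on counts, with n = 3 libraries per condition and p-values adjusted over all genes tested.

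iPSCs of this kind hold a primed pluripotent state that rests on FGF and NODAL signals from the medium. When FGF and NODAL signals fall, such cells tend to enter the ectoderm, where low WNT and BMP activity favours the anterior neural plate, the tissue of the later forebrain and eye, and BMP activity favours the surface ectoderm and the placodes beside it. Each fate is marked by its own transcription factors, which stand first below, followed by pluripotency genes, signalling pathways and metabolic genes.

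Heated medium came with a broad change. Of 17747 genes tested, 1911 (10.8%) were higher and 1790 (10.1%) lower in Cond 2 than in Cond 1 at an adjusted p under 0.05. Differentially expressed genes (DEGs), which also changed by more than 2-fold, numbered 326 higher (1.84%) and 444 lower (2.5%). The TPM ranges of the 2 groups did not overlap for 746 of these 770 DEGs. These genes were picked by a test on the same libraries, so little overlap follows from that choice and is no further support. The share over all genes tested was not computed. On log2(TPM + 1) values tested with limma, the split leaned upward, with 2564 of 14253 genes higher (18%) and 1026 lower (7.2%), and the median difference over all genes was 0.085. The share of TPM on mitochondrial genes, which enters that scale and not the counts, was 12.9%, 9.87% and 14.5% in Cond 1 and 10.8%, 6.67% and 5.09% in Cond 2, and its part in the split was not tested. Cond 2 replicate 1 was the library farthest from Cond 1 for 188 of the higher and 221 of the lower DEGs. Without that library, 716 DEGs were called.

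**Figure D1:**
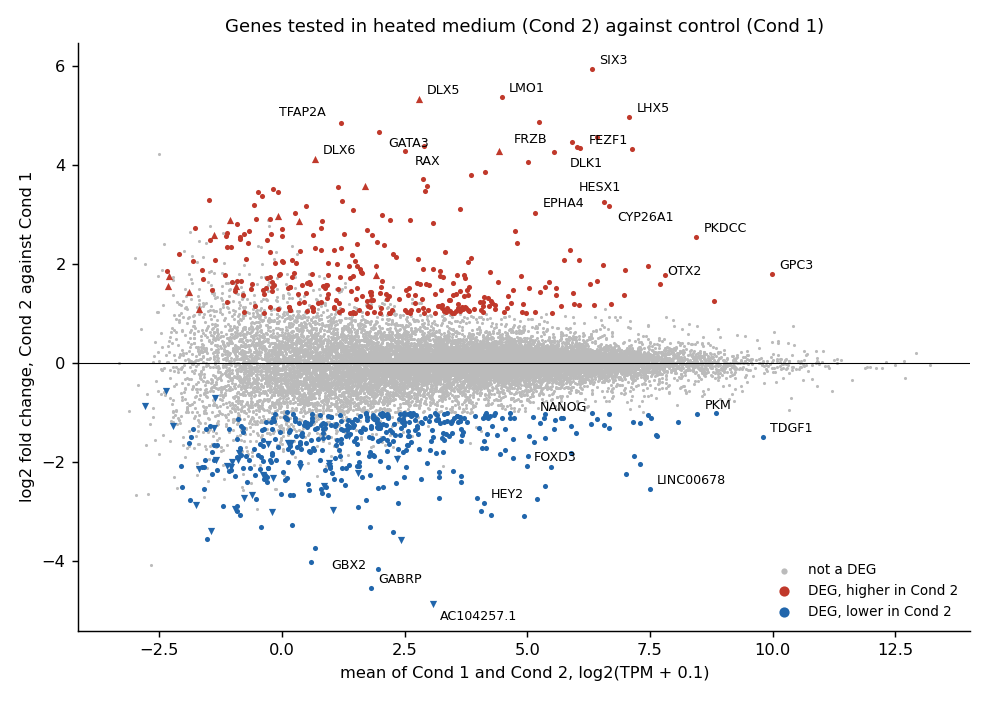
The change from Cond 1 to Cond 2 on the log2 scale (vertical) is plotted against the mean log2(TPM + 0.1) of both conditions (horizontal) for each of the 17747 genes tested. Red and blue mark the 326 higher and 444 lower DEGs, and triangles stand at the lower bound of DEGs for which no library of one condition held over 3 counts. SIX3 has the largest increase among the points and GPC3 is the DEG with the highest mean level.

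Transcription factors of the anterior neural plate were among the largest increases, together with DLX3, DLX5, DLX6, TFAP2A and GATA3 of the surface ectoderm, which are described after them. Of the 25 tested genes of a list of 32 for the anterior neural plate, 18 were higher and 3 lower, and the median log2 fold change was 1.61, against 0.00018 over all genes tested. DEGs among them numbered 13 higher and 2 lower. The 32 genes of the list summed to 1810 to 1901 TPM in the Cond 1 libraries and 3510 to 3918 TPM in the Cond 2 libraries. SOX2, which also serves pluripotency and is described below, was the largest single part of this sum in both conditions. In such bulk libraries, more cells of a type and more RNA per cell cannot be told apart.

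SIX3, a homeobox factor of the forebrain and eye field, lies on chromosome 2 at 44941702 to 44946071 (GRCh38, + strand). Its level was 0.736, 2.34 and 4.09 TPM in the Cond 1 libraries and 209, 155 and 109 TPM in the Cond 2 libraries. The conditions were far apart with no overlap, at a log2 fold change of 5.94 ± 0.34 (adjusted p = 7.50e-12). SIX3 was at 3.07, 3.03 and 2.01 TPM in Cond 3 and at 1.01, 2.44 and 5.18 TPM in Cond 4, within or near the range of Cond 1. The difference of SIX3 between Cond 3 and Cond 2 had an adjusted p of 4.55e-12.

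LHX5, a LIM homeobox factor of the early forebrain on chromosome 12 at 113462033 to 113472280 (− strand), was at 4.27, 10.2 and 9.36 TPM in Cond 1 and at 334, 244 and 207 TPM in Cond 2. Its log2 fold change was 4.97 ± 0.23 (adjusted p = 2.98e-13), and no library of one group reached the other. FEZF1, a zinc finger repressor of the forebrain on chromosome 7 at 122301303 to 122310691 (− strand), stood at 4.57, 8.06 and 5.34 TPM in Cond 1 and at 148, 136 and 101 TPM in Cond 2. Its log2 fold change was 4.36 ± 0.17 (adjusted p = 2.23e-14). Both genes were also above Cond 1 in Cond 3, where LHX5 was at 38.8, 23.3 and 34.8 TPM and FEZF1 at 70, 54.3 and 57.3 TPM, and both were lower there than in Cond 2 (adjusted p = 6.31e-11 and 2.12e-06).

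HESX1, a repressor needed for forebrain and pituitary, rose from 15.8, 17.2 and 18.2 TPM to 205, 174 and 137 TPM (log2 fold change 3.25 ± 0.17, adjusted p = 2.27e-12). LMO1, a LIM-only cofactor, rose from 1.06, 0.249 and 1.5 TPM to 60.7, 35.8 and 34 TPM (5.38 ± 0.41, adjusted p = 9.33e-10). The eye field factor RAX was at 0.0975, 0.398 and 1.01 TPM in Cond 1 and at 14.5, 8.51 and 9.19 TPM in Cond 2. For RAX the log2 fold change was 4.29 ± 0.56, with a wider standard error than SIX3 or LHX5. OTX2, which marks forebrain and midbrain and is already present in primed pluripotent cells, started from 89.7, 107 and 99 TPM and reached 355, 315 and 283 TPM. The change of OTX2 was smaller in fold (log2 fold change 1.61 ± 0.10) than that of SIX3 but larger in TPM, and Cond 3 lay between at 214, 183 and 181 TPM.

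Further members that rose were DMBX1 (log2 fold change 2.89 ± 0.36), a homeobox factor of the midbrain region, SOX21 (1.78 ± 0.10), ZNF521 (1.34 ± 0.11), SOX11 (0.94 ± 0.07), POU3F1 (0.93 ± 0.11) and SOX2 (0.44 ± 0.04). SOX2 serves both pluripotency and neural progenitors, and was at 909, 938 and 878 TPM in Cond 1 and 1292, 1333 and 1287 TPM in Cond 2. ZIC1 rose by 2.61 ± 0.58 on the log2 scale but stayed at or under 1.06 TPM in every Cond 2 library. The direction was not shared by GBX2, a factor of the territory behind the midbrain, which fell from 6.93, 4.63 and 9.88 TPM to 0, 0.3 and 0.979 TPM (−4.17 ± 0.66, adjusted p = 5.17e-05). GBX2 was just as low in Cond 3, at 0, 0 and 0.808 TPM, and its difference from Cond 2 had an adjusted p of 0.67. SP8 fell by 1.18 ± 0.13 and SOX3 by 0.49 ± 0.10 on the log2 scale. LHX2, OTX1, POU3F2 and SIX6 did not pass the test, and EMX2, SOX1, EN2, PAX2 and POU3F3 were among the members that did not reach the count minimum.

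**Figure D2:**
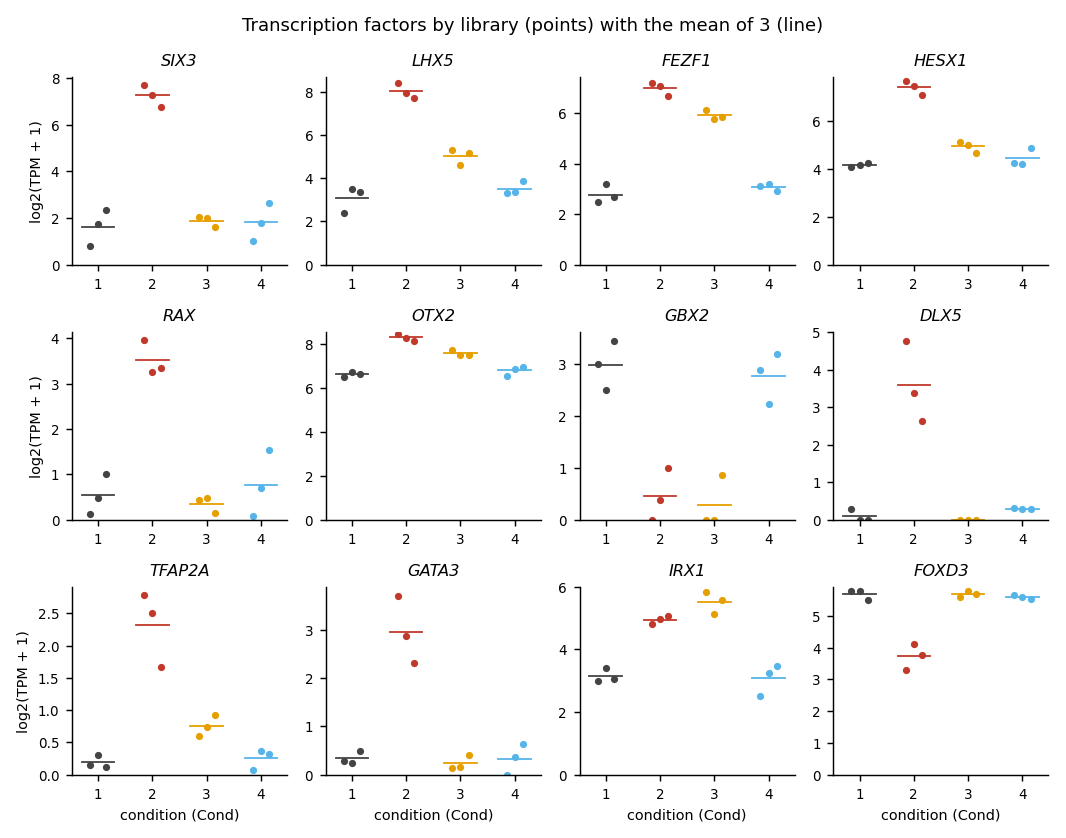
Each panel shows log2(TPM + 1) of 1 transcription factor (vertical) in Cond 1 to Cond 4 (horizontal), with a point per library and a line at the mean of 3. SIX3, LHX5, HESX1, RAX, DLX5, TFAP2A and GATA3 are highest in Cond 2, IRX1 is highest in Cond 3, GBX2 is low in both Cond 2 and Cond 3, and FOXD3 is low in Cond 2.

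The gains at SIX3 extended to its neighbours. Within 100 kb of its start 9 genes were tested, and 8 of them, SIX3 included, were higher DEGs. SIX3-AS1, the antisense RNA that overlaps the start of SIX3, was at 0 to 0.184 TPM in Cond 1 and at 7.22, 7.76 and 3.61 TPM in Cond 2, at least 11.9-fold higher. LINC01833, which was named after its values were seen, runs from 20.6 kb to 2.5 kb before SIX3 on the other strand and had a log2 fold change of 3.80. The short annotated RNA elements RF02246, RF02247, RF02249 and RF02250 lie inside its span. RF02246 was at 8.35, 2.44 and 7.85 TPM in Cond 1 and 275, 141 and 81.1 TPM in Cond 2, and RF02250 was at least 19.4-fold higher. AC012354.1, 13 kb after the start of SIX3 and also named after its values were seen, had a log2 fold change of 2.86. SIX2, the next tested gene beyond it, was at −0.59 ± 0.61 (adjusted p = 0.556). The libraries were strand-specific, but the strand setting of the counting was not given in the sources used here, so overlapping genes at this locus may hold the same reads.

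**Figure D3:**
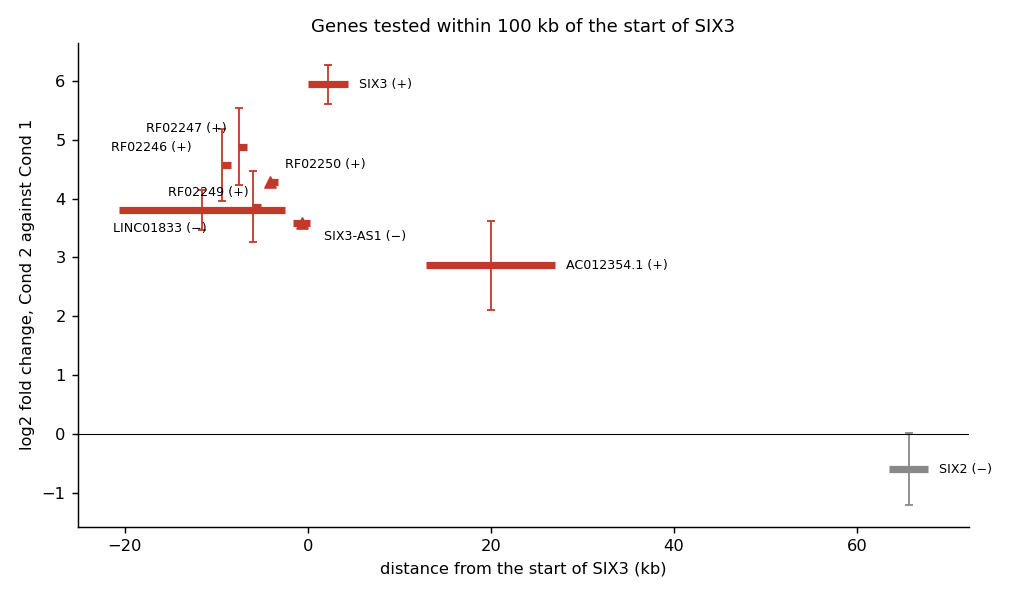
Log2 fold changes of Cond 2 against Cond 1 (vertical) are drawn over the span of each tested gene, by distance from the start of SIX3 in kb (horizontal), with the strand in brackets. Bars show the standard error and triangles mark the lower bounds of RF02250 and SIX3-AS1. The 8 red genes between LINC01833 and AC012354.1 are higher DEGs, and SIX2 in grey did not pass the test.

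At some other loci an antisense gene and its partner were both DEGs, and at most they were not. Of 365 antisense genes tested together with their partner, 18 were DEGs, beside 770 DEGs among all 17747 genes tested. In 7 of these pairs both were DEGs in the same direction, and in the other 11 the partner was not a DEG. Among those 11, FUT8-AS1 (2.68, adjusted p = 0.000192) rose, and FUT8 (0.94, adjusted p = 1.37e-06) rose with it by less than 2-fold. This pair was named after its values were seen. PAXIP1-AS1 (adjusted p = 3.33e-05) and ATP2B1-AS1 (−1.97, adjusted p = 0.0076), named after their values were seen, fell while PAXIP1 (0.47, adjusted p = 0.000636) and ATP2B1 (0.31, adjusted p = 0.00261) rose. LHX5-AS1, which overlaps the start of LHX5, went from 5.91, 14.2 and 18 TPM to 367, 262 and 180 TPM (log2 fold change 4.32 ± 0.28). FEZF1-AS1, inside the span of FEZF1, went from 3.63, 5.94 and 5.34 TPM to 145, 124 and 77.1 TPM (4.46 ± 0.20). The other pairs with both DEGs were those of FOXD3, ID2, SOX21 and TRHDE, and the same limit on strand holds for all these pairs. Runs of 3 or more neighbouring DEGs, each under 100000 bases from the next, numbered 13, and 12 of them pointed in one direction. Among these was the run of CYP26C1, AL358613.2 and CYP26A1, all higher. The 13 runs held 48 of the 770 DEGs, and in some of them genes overlap and may hold the same reads.

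Promoter sequences are shown for LMO1 and HESX1, which rose with the neural plate genes, and for CYP26A1, a retinoic acid target described below. Each is the 250 bases before the start of the gene in RefSeq (GRCh38.p14), written 5′ to 3′ on the strand of the gene. LMO1 is read from chr11:8268788-8269037 (−), HESX1 from chr3:57227616-57227865 (−) and CYP26A1 from chr10:93073225-93073474 (+). Capitals mark TAATTA, a core site of homeobox factors.
LMO1: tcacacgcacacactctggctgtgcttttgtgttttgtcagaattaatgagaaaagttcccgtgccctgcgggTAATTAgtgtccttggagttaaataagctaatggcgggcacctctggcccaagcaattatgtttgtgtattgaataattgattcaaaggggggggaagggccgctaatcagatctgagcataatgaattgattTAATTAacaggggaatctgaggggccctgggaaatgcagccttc
HESX1: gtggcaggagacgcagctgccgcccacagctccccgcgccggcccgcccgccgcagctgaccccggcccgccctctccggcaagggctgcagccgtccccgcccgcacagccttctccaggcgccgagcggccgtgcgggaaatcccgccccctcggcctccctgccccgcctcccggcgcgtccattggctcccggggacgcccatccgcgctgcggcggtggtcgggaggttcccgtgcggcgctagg
CYP26A1: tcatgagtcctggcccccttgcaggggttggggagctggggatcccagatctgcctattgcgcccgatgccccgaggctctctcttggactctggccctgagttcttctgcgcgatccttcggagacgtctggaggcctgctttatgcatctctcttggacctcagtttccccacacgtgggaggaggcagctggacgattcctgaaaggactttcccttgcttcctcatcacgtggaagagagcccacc

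The LMO1 promoter holds 2 TAATTA matches, and the HESX1 and CYP26A1 windows hold none of the motifs searched. The homeobox motif, the letters TAATCC as a site of OTX-type factors and the letters AGGTCA as the repeat unit of retinoid receptor sites were searched on both strands of 27305 promoter windows of this length. The first was in 4.49% of all windows, in 3.3% of the 212 windows of higher DEGs, in 2.26% of the 266 windows of lower DEGs and in 2 of the 25 windows of the neural plate list. TAATCC was in 5.67% of all windows, 3.77% of those of higher DEGs and 3.01% of those of lower DEGs, and AGGTCA in 12.1%, 6.13% and 9.77%. In the 25 neural plate windows TAATCC was in 0 and AGGTCA in 2. Not every DEG had a window, and SIX3, LHX5 and DLX5 had none. Each share among DEGs was below that of all windows, which include genes outside the set tested here. The difference was not tested, and a match is no evidence of binding.

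Genes of the surface ectoderm and placodes were also higher. In a list of 30, 23 were tested, with 16 higher, 2 lower and a median log2 fold change of 0.67. The DEGs among them were 11, all higher. Placode and surface ectoderm factors DLX5 and DLX6 lie next to each other on chromosome 7, and both were near 0 in Cond 1. DLX5 was at 0.208, 0 and 0 TPM in Cond 1 and at 26.3, 9.44 and 5.24 TPM in Cond 2, at least 40.4-fold higher (adjusted p = 6.56e-07). DLX6 was at 0 in the 3 Cond 1 libraries and at 4.82, 2.69 and 1.51 TPM in Cond 2, at least 17.5-fold higher. DLX3 was listed at 0 in Cond 1 and at 3.64, 0.838 and 0.612 TPM in Cond 2, at least 7.83-fold higher. Cond 2 replicate 1 was the highest library for all 3 DLX genes.

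TFAP2A, an early non-neural ectoderm and neural crest factor, was at 0.11, 0.232 and 0.0831 TPM in Cond 1 and at 5.88, 4.67 and 2.2 TPM in Cond 2 (log2 fold change 4.84 ± 0.46, adjusted p = 3.86e-08). GATA3 was at 0.214, 0.187 and 0.402 TPM in Cond 1 and at 12.1, 6.29 and 3.97 TPM in Cond 2 (4.66 ± 0.57, adjusted p = 1.59e-06). In Cond 2 both were below SIX3, LHX5, FEZF1 and HESX1, GATA3 overlapped the range of RAX, and both were above ZIC1. GATA3 stayed at or under 0.333 TPM in Cond 3. The Iroquois factors IRX1 (1.83 ± 0.21), IRX5 (1.65 ± 0.36) and IRX3 (1.28 ± 0.19) rose as well. IRX1 was at 6.89, 9.68 and 7.22 TPM in Cond 1, at 27.2, 30.1 and 32.3 TPM in Cond 2 and higher still in Cond 3, at 56.2, 33.9 and 47.1 TPM (adjusted p for Cond 3 against Cond 2 = 0.00493). FOXI3, a placode factor with 63.8, 58.3 and 67.4 TPM in the control, reached 94.9, 108 and 114 TPM (0.65 ± 0.08). The keratin gene KRT18 moved the other way, with a fall of 0.61 ± 0.08 on the log2 scale. TP63, KRT5 and KRT14, which mark the later epidermis, did not reach the count minimum.

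Markers of other cell types were mixed. On a list of 15 amnion and trophoblast genes 7 were tested, with 4 higher, 3 of which (TFAP2A, GATA3 and KRT7) were also on the surface ectoderm list, and 1 lower. The lower one, GABRP, a GABA receptor subunit found in amnion, fell from 5.85, 7.89 and 6.02 TPM to 0.471, 0.227 and 0.18 TPM (−4.55 ± 0.29, adjusted p = 4.88e-11). Of 19 mesoderm and endoderm genes, 7 were tested. The summed TPM of all 19 was 67.9 to 89 in Cond 1 and 42.3 to 44.7 in Cond 2. Most of that sum was KDR, a VEGF receptor, which fell from 65.8, 51.8 and 61.6 TPM to 20.8, 21.1 and 24.4 TPM. CXCR4 rose by 1.95 ± 0.42 on the log2 scale, while SOX17, GATA4, FOXA2 and HAND1 were under the count minimum. Among 8 tested neural crest genes, 4 were higher and 2, FOXD3 and ETS1, lower. Of 8 tested fibroblast genes none was higher and 3 were lower, namely THY1, COL1A1 and COL1A2. The 11 genes of that list summed to 429 to 458 TPM in Cond 1 and 270 to 325 TPM in Cond 2. The defining markers DCN, LUM and PRRX1 were at or near 0. On the neuronal list 5 of 12 tested genes were higher and 2 lower. The microtubule regulator STMN2 rose by 2.06 ± 0.31, MAP2 by 0.94 ± 0.09 and MAP1B by 0.94 ± 0.08, whereas DCX fell by 0.97 ± 0.21 on the log2 scale.

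Pluripotency genes fell in part. Of 27 tested, 14 were lower, 7 higher and 6 did not pass the test, with a median log2 fold change of −0.28, and the 7 DEGs were all lower. Their summed TPM overlapped between Cond 1 (11495 to 11785) and Cond 2 (10057 to 11520). The largest fall was that of FOXD3, a forkhead factor of pluripotent cells and neural crest, from 53.9, 53.6 and 44.3 TPM to 8.82, 16.4 and 12.6 TPM (−2.08 ± 0.14, adjusted p = 1.55e-10). FOXD3 held the control level in Cond 3, at 47.3, 54.5 and 50 TPM. DPPA2 (−1.77 ± 0.34), TDGF1 (−1.50 ± 0.11), THY1 (−1.31 ± 0.08), CD9 (−1.28 ± 0.08), TERF1 (−1.11 ± 0.06) and NANOG (−1.09 ± 0.08) were the other DEGs.

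NANOG, a core factor of pluripotency, was at 46.7, 47.2 and 43.6 TPM in Cond 1, at 20.2, 24 and 24.6 TPM in Cond 2 and lower again in Cond 3, at 9.93, 11.3 and 10.2 TPM (adjusted p for Cond 3 against Cond 2 = 1.75e-09). CD9 and TERF1 showed another order. CD9, a surface tetraspanin, was at 83.6, 82.9 and 80.5 TPM in Cond 1, at 30.6, 36.6 and 41.1 TPM in Cond 2 and at 96.1, 95.7 and 105 TPM in Cond 3. The telomere protein gene TERF1 stood at 238, 263 and 239 TPM in Cond 1, at 102, 132 and 130 TPM in Cond 2 and at 274, 268 and 264 TPM in Cond 3. L1TD1 (−0.73 ± 0.04) and DPPA4 (−0.63 ± 0.04) fell by less than 2-fold. LIN28A, an RNA-binding protein gene at a far higher level, went from 1613, 1804 and 1651 TPM to 1981, 2235 and 2136 TPM, and SALL4, TRIM71 and ALPL rose by 0.32 to 0.39 on the log2 scale.

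Genes of the naive state, an earlier form of pluripotency, were mixed at low levels. Of 9 tested on counts, 4 were higher and 2 lower, with a median log2 fold change of 0.22, and the list summed to 47.6 to 54.3 TPM in Cond 1 and 61.9 to 66.7 TPM in Cond 2. A further member, without a count row, was lower on TPM with limma. ESRRB, a nuclear receptor, rose from 4.22, 2.47 and 3.05 TPM to 6.94, 5.99 and 4.87 TPM (0.78 ± 0.20). DPPA3 was at 0.165, 1.93 and 0.621 TPM in Cond 1 and at 4.68, 3.5 and 4.72 TPM in Cond 2 (2.19 ± 0.68, adjusted p = 0.0238), but its call was lost without any 1 of 5 libraries, all but Cond 1 replicate 2 (adjusted p from 0.0528 to 0.132). FGF4 (1.57 ± 0.49) and TFAP2C (0.44 ± 0.11) were the other higher genes. The call of FGF4 was lost without Cond 1 replicate 1 (0.089), Cond 1 replicate 2 (0.0723) or Cond 2 replicate 3 (0.0668), and that of TFAP2C without Cond 1 replicate 1 (0.055). NR5A2, another nuclear receptor, was near 1 TPM in the control and fell by 2.13 ± 0.38, and no library reached the other group. TFCP2L1 fell by 0.56 ± 0.19 on the log2 scale, and its call was lost without any 1 of 5 libraries, all but Cond 2 replicate 3 (adjusted p from 0.0579 to 0.188).

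**Figure D4:**
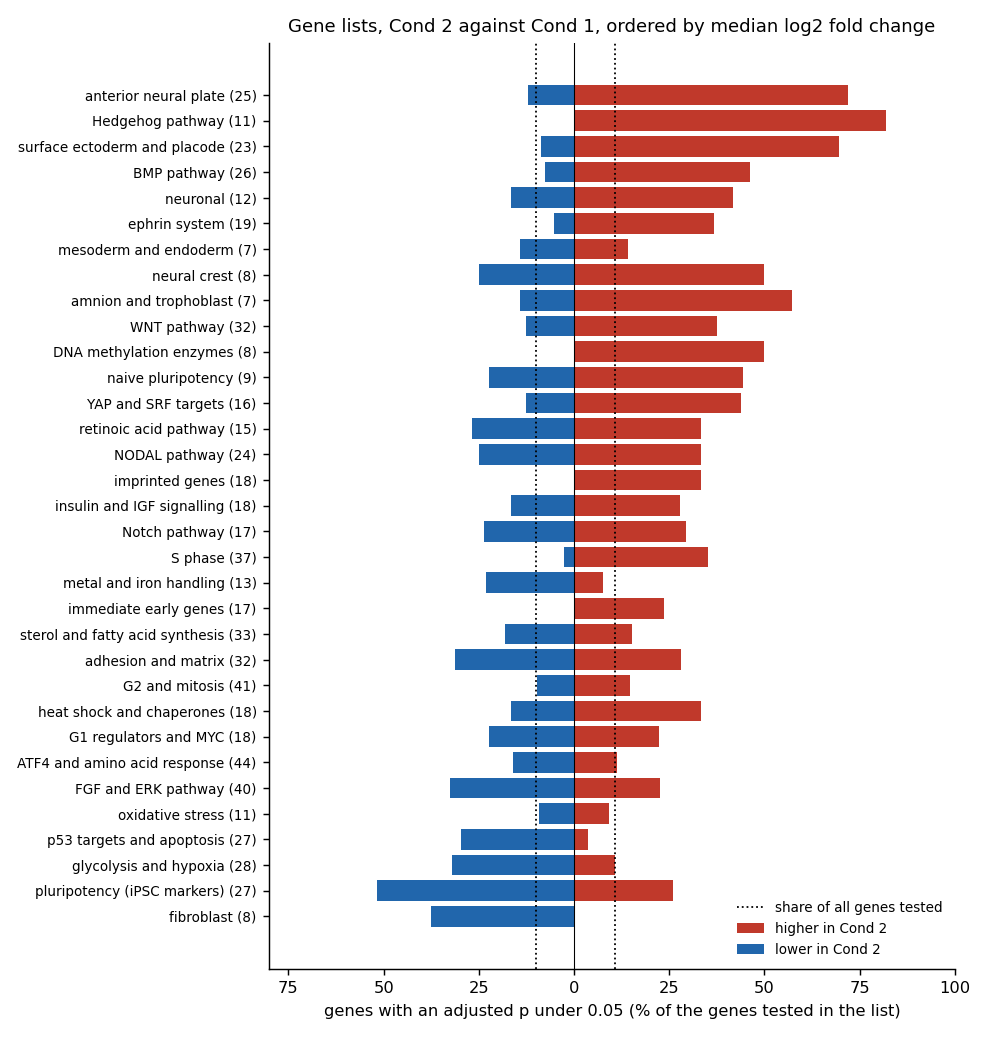
For each gene list, with the number of genes tested in brackets, bars give the percentage of tested genes that were higher (red, right) or lower (blue, left) in Cond 2 at an adjusted p under 0.05. Dotted lines mark the shares over all genes tested, 10.8% and 10.1%. The anterior neural plate, Hedgehog and surface ectoderm lists lead in red and the pluripotency list leads in blue.

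NODAL signalling, in which the ligand NODAL and its coreceptor TDGF1 act through activin receptors and are held back by LEFTY1 and LEFTY2, changed at both ends. Of 24 tested genes 8 were higher and 6 lower. NODAL was at 9.65, 5.13 and 4.13 TPM in Cond 1 and at 2.22, 1.24 and 3.43 TPM in Cond 2 (−1.55 ± 0.40, adjusted p = 0.00622), and the call was lost without Cond 1 replicate 1 (adjusted p = 0.0817). TDGF1 was at 1215, 1346 and 1336 TPM in Cond 1 and at 351, 496 and 623 TPM in Cond 2. Among lower DEGs it had the largest difference in mean TPM. The 2 LEFTY inhibitors diverged. LEFTY1 fell from 6.24, 9.63 and 7.13 TPM to 4.19, 1.85 and 1.21 TPM (−1.74 ± 0.37), while LEFTY2 was at 4.92, 5.75 and 5.37 TPM in Cond 1 and 13.7, 8.35 and 10.7 TPM in Cond 2 (0.95 ± 0.26, adjusted p = 0.012). The call of LEFTY2 was lost without Cond 1 replicate 1 (adjusted p = 0.0533) or Cond 2 replicate 1 (adjusted p = 0.0801). FST, an activin antagonist, rose from 65.6, 62.7 and 71.5 TPM to 198, 168 and 187 TPM (1.38 ± 0.10). The receptor genes TGFBR1 (0.50 ± 0.06) and ACVR1B (0.40 ± 0.07) rose, and of the targets SKIL fell (−0.50 ± 0.09).

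FGF signalling through ERK is read out by feedback genes of the DUSP, SPRY and ETV families, and these did not move as one. On the whole list of 40 tested genes 9 were higher and 13 lower, with a median of −0.0014. Of 6 SPRY and SPRED inhibitors 3 were lower and none higher, and of 7 ETS factors tested on counts 4 were lower and none higher. A further ETS factor, without a count row, was higher on TPM with limma. Of 7 MAP kinase phosphatases 1 was lower and 1 higher, with a median of 0.28, and of 8 targets 3 were higher and 2 lower. DUSP6, an ERK phosphatase, went from 86.7, 67.1 and 60.1 TPM to 41, 30.7 and 33.1 TPM (−1.11 ± 0.12, adjusted p = 3.84e-07). DUSP4, another such phosphatase, went from 8.39, 7.78 and 7.88 TPM to 13.6, 10.3 and 13 TPM (0.53 ± 0.15, adjusted p = 0.0109), and its call was lost without Cond 2 replicate 1 (adjusted p = 0.0558). Of the targets, SPSB1 (0.84 ± 0.18) and CCND1 (0.22 ± 0.05) rose and IL17RD fell (−0.47 ± 0.09). ETV5 (−1.34 ± 0.15), SPRY4 (−0.94 ± 0.09), ETV4 (−0.76 ± 0.09), MYC (−0.63 ± 0.11) and SPRY1 (−0.53 ± 0.11) were lower too. Like DUSP6, these 5 genes were lower still in Cond 3, where DUSP6 was at 2.2, 1.7 and 1.61 TPM and ETV5 at 1.61, 3.1 and 2.02 TPM (adjusted p for Cond 3 against Cond 2 = 3.73e-14 and 2.41e-10). The ETS factors ETS1 and ELK3 had another order. ETS1 was at 27.3, 25.8 and 24.7 TPM in Cond 1, 8.89, 9.28 and 12.4 TPM in Cond 2 and 18.9, 23.5 and 24.6 TPM in Cond 3. ELK3 was at 9.07, 9.12 and 10.2 TPM in Cond 1, 4.64, 5.28 and 5.59 TPM in Cond 2 (−0.96 ± 0.14) and 20, 18.5 and 18 TPM in Cond 3.

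Among 7 FGF ligands tested 2, FGF4 and FGF8, were higher and 3 lower. FGF19 (−1.42 ± 0.24) and FGF13 (−1.03 ± 0.08) fell by more than 2-fold and FGF2 (−0.27 ± 0.05) by less. FGF8, a ligand made at signalling centres of the neural plate, was at 3.23, 1.51 and 1.09 TPM in Cond 1 and at 5.64, 7.11 and 5.18 TPM in Cond 2 (1.53 ± 0.47, adjusted p = 0.0216). Its call was lost without Cond 1 replicate 2 (adjusted p = 0.0773), Cond 1 replicate 3 (0.108) or Cond 2 replicate 2 (0.0812). The receptors went up, with FGFR3 at 146, 148 and 159 TPM in Cond 1 and 352, 301 and 261 TPM in Cond 2 (0.93 ± 0.08), FGFR2 at 0.40 ± 0.06 and FGFR1 at 0.34 ± 0.05.

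BMP signalling runs from BMP ligands through SMAD1, SMAD5 and SMAD9 to targets of the ID and inhibitory SMAD families. Of 26 tested genes 12 were higher and 2 lower, and the median log2 fold change was 0.54. BMP4 rose from 5.98, 4.31 and 7.11 TPM to 24, 19.9 and 17.5 TPM (1.72 ± 0.20, adjusted p = 5.93e-07), BMP7 by 0.93 ± 0.12 and BMP2 by 0.74 ± 0.13. Of the targets, ID4 went from 32.9, 38.8 and 35.8 TPM to 171, 151 and 127 TPM (1.98 ± 0.10), ID2 from 32.5, 46.3 and 32.4 TPM to 152, 109 and 93.7 TPM (1.60 ± 0.15) and ID1 from 794, 928 and 783 TPM to 1289, 1205 and 1072 TPM (0.43 ± 0.08). SMAD6 (1.08 ± 0.15) and SMAD7 (0.89 ± 0.16), which inhibit the pathway, rose as well. ID1 and SMAD7 separate Cond 2 from Cond 3, where ID1 was at 614, 729 and 744 TPM and SMAD7 at 9.57, 15.2 and 11.1 TPM against 25.4, 22.5 and 20.9 TPM in Cond 1. The antagonist NOG was at 2.21, 1.34 and 1.62 TPM in Cond 1 and at 3.14, 4.16 and 7.79 TPM in Cond 2 (1.44 ± 0.45, adjusted p = 0.0258), but the call was lost without Cond 1 replicate 2 (0.0874), Cond 1 replicate 3 (0.0754) or Cond 2 replicate 3 (0.187). Of 4 BMP receptor genes tested none was higher and 1 was lower, beside 10.8% and 10.1% of all genes tested.

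WNT signals are received by Frizzled proteins and blocked outside the cell by secreted antagonists, and members of both groups rose. Of 32 tested genes 12 were higher and 4 lower, with a median of 0.33. FRZB, a secreted antagonist on chromosome 2, went from 3.44, 4.98 and 4.66 TPM to 108, 95.3 and 61.8 TPM (4.26 ± 0.22, adjusted p = 2.07e-12) and was at 22.8, 18.9 and 19 TPM in Cond 3. SHISA2, which retains Frizzled and FGF receptors inside the cell, went from 34, 34.1 and 27.8 TPM to 106, 89.7 and 72.7 TPM (1.41 ± 0.14). SFRP5 rose by 1.18 ± 0.20 and SFRP1 by 0.41 ± 0.06, but SFRP2 fell from 804, 745 and 661 TPM to 469, 403 and 496 TPM (−0.78 ± 0.08). FZD5, the Frizzled of the eye field, rose from 69.1, 68.4 and 69.5 TPM to 299, 302 and 250 TPM (1.96 ± 0.09, adjusted p = 3.21e-13). FZD8 (1.38 ± 0.11), FZD2 (0.85 ± 0.07) and FZD7 (0.57 ± 0.08) rose less. The ligand gene WNT5B fell by 2.51 ± 0.40 from a low level. AXIN2, a common readout of the pathway, was at 19.3, 18.8 and 21.1 TPM in Cond 1, at 15.3, 15.4 and 16.9 TPM in Cond 2 (−0.41 ± 0.09) and at 34.2, 32 and 32.6 TPM in Cond 3.

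In the Hedgehog pathway, in which PTCH1 is receptor and target and GLI2 and GLI3 are transcription factors, 9 of 11 tested genes were higher and none lower, with a median of 0.67. PTCH1 rose from 4.86, 5.03 and 5.18 TPM to 9.78, 10.6 and 10.5 TPM (0.95 ± 0.08). GLI3 (0.98 ± 0.08), the coreceptors BOC (0.81 ± 0.13) and GAS1 (0.74 ± 0.13) and GLI2 (0.47 ± 0.06) rose with it. GLI1, the usual readout of active signalling, was at 0.16 with an adjusted p of 0.24, and the ligands SHH, IHH and DHH were under the count minimum.

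Retinoic acid is made by ALDH1A enzymes and broken down by CYP26 enzymes, and members of these families moved in opposite directions. CYP26A1, on chromosome 10 at 93073475 to 93077885 (+ strand), was at 14.4, 23.9 and 19.3 TPM in Cond 1 and at 181, 177 and 190 TPM in Cond 2, an even level across libraries (3.17 ± 0.17, adjusted p = 2.81e-12). In Cond 3 it was at 31.8, 16.5 and 22.4 TPM. CYP26C1, its neighbour, rose by 2.40 ± 0.40, and CRABP2, which carries retinoic acid in the cell, from 915, 1120 and 936 TPM to 1737, 1774 and 1764 TPM (0.74 ± 0.07). ALDH1A1 fell from 2.81, 4.18 and 2.1 TPM to 0.488, 0.555 and 1.17 TPM (−2.12 ± 0.39), ALDH1A3 by 1.14 ± 0.26 and the retinol dehydrogenase RDH10 by 0.64 ± 0.15 on the log2 scale. Over the list of 15 tested genes 5 were higher and 4 lower.

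Notch genes were split, with 5 of 17 tested higher and 4 lower. The target HEY2 fell from 31.8, 27 and 30.8 TPM to 2.65, 3.65 and 7.18 TPM (−2.84 ± 0.22, adjusted p = 1.43e-09) and the ligand DLL3 from 23, 16.3 and 15.4 TPM to 5.06, 8.03 and 7.93 TPM (−1.46 ± 0.18). The progenitor factors HES3 (0.54 ± 0.07) and HES1 (0.64 ± 0.11) and the receptor NOTCH3 (0.49 ± 0.05) rose.

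**Figure D5:**
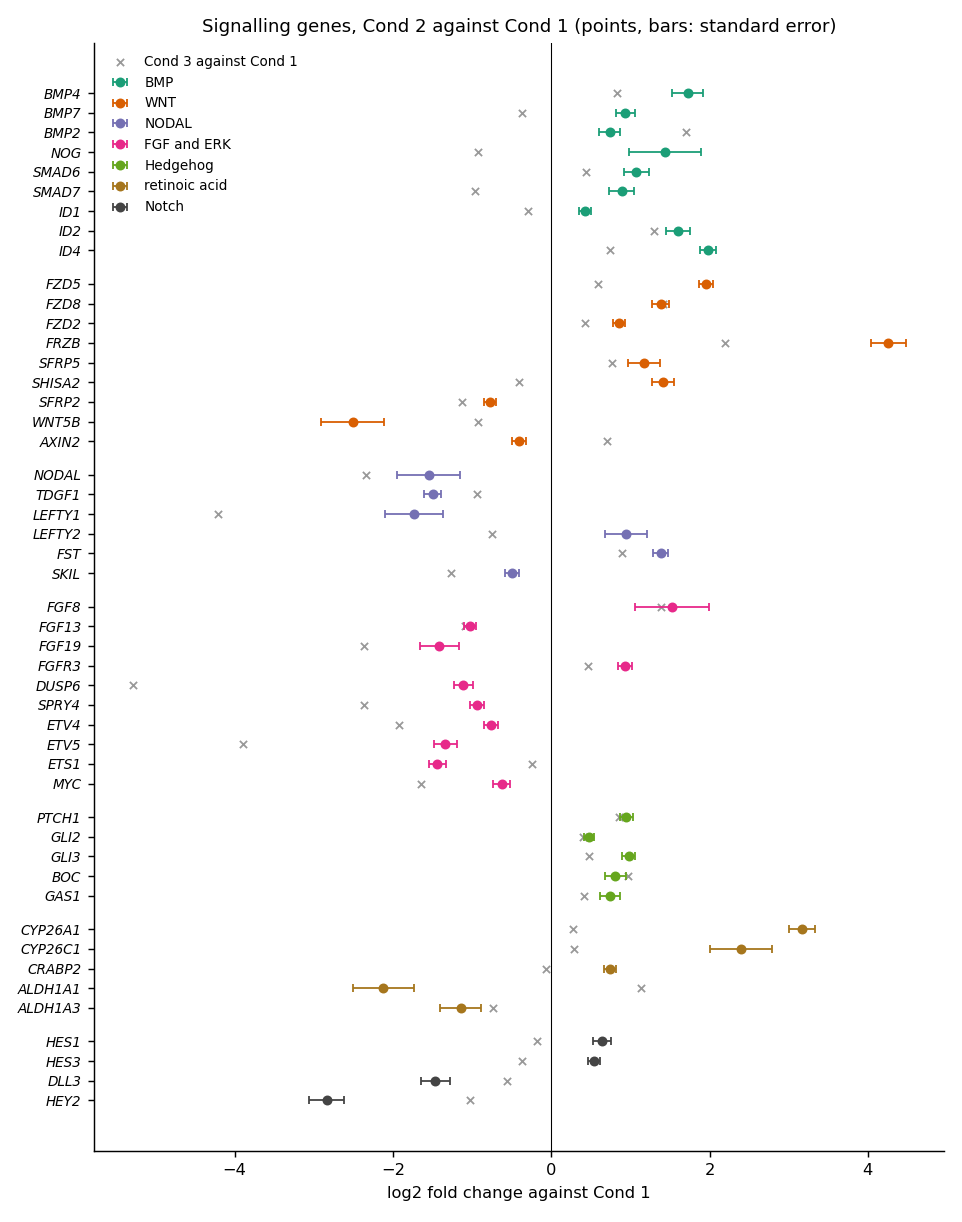
Log2 fold changes against Cond 1 (horizontal) are drawn for named genes of 7 pathways, with coloured points and standard error bars for Cond 2 and grey crosses for Cond 3, which shares the Cond 1 libraries. DUSP6, ETV5 and LEFTY1 lie farther left in Cond 3, and FRZB, CYP26A1, FZD5 and ID4 lie farther right in Cond 2.

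Cell contact genes changed as well. Ephrins and Eph receptors set tissue borders by repulsion, and 7 of 19 tested were higher and 1 lower. EPHA4 rose from 7.64, 8.05 and 6.42 TPM to 71.7, 68.7 and 52 TPM (3.04 ± 0.13, adjusted p = 7.77e-14), against 13.5, 11.5 and 11.7 TPM in Cond 3. EPHB2 (1.35 ± 0.10), EFNB1 (1.20 ± 0.09), EFNA5 (1.09 ± 0.11) and EPHA7 (1.06 ± 0.14) rose by more than 2-fold, and EPHA2, the Eph receptor of pluripotent cells, fell by 0.46 ± 0.09 on the log2 scale. Of 32 adhesion and matrix genes 9 were higher and 10 lower. The neural cadherin gene CDH2 went from 61.1, 59 and 64.4 TPM to 112, 118 and 130 TPM (0.87 ± 0.07), CDH6 from 1.18, 2.5 and 3.55 TPM to 27.1, 23.2 and 16.1 TPM (3.11 ± 0.27), and CDH4 rose by 1.03 ± 0.22. CDH3 (−0.40 ± 0.06), FN1 (−0.72 ± 0.08), ITGB1 (−0.58 ± 0.06) and COL2A1 (−1.08 ± 0.22) fell, and LAMB1 rose (0.51 ± 0.06).

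Imprinted genes, which are read from a single parental copy, had 6 higher and none lower among 18 tested. DLK1, a non-canonical Notch ligand, was at 1.28, 5.41 and 9.95 TPM in Cond 1 and at 160, 95.2 and 113 TPM in Cond 2 (4.37 ± 0.41, adjusted p = 2.78e-08). NNAT rose from 47, 56.7 and 51.1 TPM to 209, 203 and 192 TPM (1.88 ± 0.11) and MEST by 0.58 ± 0.05. MEG3, the neighbour of DLK1 expressed from the other parental copy, was at −0.09 and did not pass the test.

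The nutrient and stress lists moved little beside these. The ATF4 and amino acid response, which cells start when amino acids run short, had 5 of 44 tested genes higher and 7 lower, a median of 0.0080 and no DEG, against a median of −1.05 for the same genes in Cond 3. DDIT3, a stress factor of this response, was at 54.6, 48.3 and 45.8 TPM in Cond 1 and at 76.3, 64.3 and 72.3 TPM in Cond 2 (0.43 ± 0.12, adjusted p = 0.00876), and the call was lost by a small margin without Cond 2 replicate 1 (adjusted p = 0.0505). VLDLR (−0.80 ± 0.07) and the arginine transporter gene SLC7A3 (−0.47 ± 0.05) fell. Of 18 heat shock and chaperone genes 6 were higher and 3 lower, none by 2-fold. HSP90AA1 went from 1185, 1205 and 1146 TPM to 1481, 1627 and 1709 TPM (0.36 ± 0.04), DNAJA1 rose by 0.39 ± 0.06 and HSPA5 by 0.25 ± 0.05. Of 33 sterol and fatty acid genes 5 were higher and 6 lower, with HMGCS1, an enzyme gene of sterol synthesis, at 0.54 ± 0.10.

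Of the metabolic lists, glycolysis had no higher gene, with 7 of 16 tested lower. PKM, the pyruvate kinase gene, fell from 462, 499 and 435 TPM to 212, 245 and 269 TPM (−1.03 ± 0.06, adjusted p = 8.78e-12), in contrast to 647, 628 and 655 TPM in Cond 3. HK1 (−0.67 ± 0.05), the glucose transporter genes SLC2A3 (−0.56 ± 0.06) and SLC2A1 (−0.50 ± 0.06) and LDHA (−0.33 ± 0.07) fell less, and GAPDH, ENO1, PGK1 and ALDOA did not pass the test. Of 27 p53 and apoptosis genes 8 were lower and 1 higher, among them RRM2B (−0.73 ± 0.08), PMAIP1 (−0.52 ± 0.07) and CASP8 (−0.95 ± 0.20). Of 37 S phase genes 13 were higher and 1 lower, with CDC6 at 0.60 ± 0.06, UHRF1 at 0.50 ± 0.07 and POLD3 at 0.44 ± 0.07. FLVCR1, a heme and choline transporter gene, fell from 114, 105 and 107 TPM to 41.3, 53.2 and 53.4 TPM (−1.23 ± 0.08).

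By absolute level the largest gain was that of GPC3, a membrane proteoglycan gene on chromosome X, from 420, 440 and 440 TPM to 1645, 1581 and 1544 TPM (1.79 ± 0.06, adjusted p = 4.61e-15). In Cond 3 GPC3 was at 482, 431 and 464 TPM. PKDCC, a secreted kinase gene, rose from 87.6, 112 and 92.5 TPM to 677, 596 and 530 TPM (2.54 ± 0.11), and CITED2, a transcriptional cofactor gene, from 233, 272 and 256 TPM to 626, 646 and 654 TPM (1.25 ± 0.06). PIM2, a kinase gene, fell from 583, 638 and 572 TPM to 299.7, 304 and 346 TPM. LIX1 rose from 0, 0.636 and 1.24 TPM to 17.4, 13.4 and 11.6 TPM (4.38 ± 0.45).

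DEGs among long non-coding RNAs were mostly lower. Of 2231 tested, 32 (1.43%) were higher DEGs and 105 (4.71%) lower DEGs, whereas protein-coding genes had 287 (2.08%) and 310 (2.25%) of 13791. LINC00678 fell from 305, 295 and 319 TPM to 35.8, 57.3 and 74.1 TPM (−2.55 ± 0.14, adjusted p = 5.13e-12). AC104257.1 was at 18.1, 11.6 and 19.3 TPM in Cond 1 and under 1 TPM in each Cond 2 library, at least 29.4-fold lower. LINC00458 was at 1.12, 1.82 and 1.64 TPM in Cond 1 and at 0, 0.0602 and 0 TPM in Cond 2, at least 8.13-fold lower, while Cond 3 kept 1.18, 1.07 and 1.17 TPM. Of the 15 largest decreases under the naming rule, 8 were annotated as long non-coding RNAs, and the coding genes beside GABRP and GBX2 were MAGEA4, GUCY2C and CR1L. MAGEA4 was at 0 in each Cond 2 library and at least 6.33-fold lower, with the limit that it has near-identical copies. GUCY2C, the guanylin receptor gene, fell by 4.02 ± 0.50 and CR1L by 3.75 ± 0.55 on the log2 scale, and CR1L stayed at 2.59, 2.97 and 2.93 TPM in Cond 3.

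Genes without a count row numbered 2042 and lay mostly on chromosomes 21 and 22 and the mitochondrial genome. Only those with at least 1 TPM in all 12 libraries were tested, on TPM with limma, and 113 passed. How many were tested is not given here, so 113 is not to be read as a share of 2042. On this scale 18% of all genes tested were higher and 7.2% lower. Counts of list members above leave out genes without a count row. Beside those given for the ETS and naive genes, 1 was higher on each of the WNT and neural crest lists and 1 lower on the adhesion and matrix list. PNPLA3, a lipid droplet enzyme gene, rose from 17.4, 15.7 and 13 TPM to 51.2, 49.7 and 44.1 TPM (difference of log2(TPM + 1) 1.60, adjusted p = 1.96e-05). APOBEC3B fell from 29, 33.3 and 26.6 TPM to 10.6, 13.3 and 15.3 TPM (−1.13), and GSTT2B by 1.44, both with near-identical relatives in their families. Of 15 mitochondrially encoded genes 11 were lower. That count rested on single libraries, since it was 2 without Cond 1 replicate 1, Cond 1 replicate 3, Cond 2 replicate 2 or Cond 2 replicate 3. Without Cond 1 replicate 3, 74 genes without a count row passed.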

How the data were processed

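The data are 12 RNA-Seq libraries of the line 201B7, 3 per condition, and groups were taken from the labels. Per the labels and methods, the authors made strand-specific poly(A) libraries, demultiplexed with bcl2fastq 2.20.0.422, trimmed with cutadapt 4.1 and fastp 0.20.1, aligned to GRCh38 with HISAT2 2.1.0 and counted on genes with featureCounts. The strand setting and the treatment of reads with several matches are not given in the sources used here. The authors deposited raw counts per gene as whole numbers. The deposited TPM are these counts scaled by gene length and library total by the authors, with a largest relative deviation of 1.79e-14 on recomputation. Of 58580 lines of counts 5 were unusable, and 2042 genes with TPM had no count row, among them the 37 mitochondrial genes. Coordinates are from GENCODE 44.

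Counts were normalized by TMM and fitted with edgeR 4.0.16 in R 4.3.3 over the 12 libraries, with condition as the only term. Genes passed edgeR's filter on low counts, and p-values were adjusted by Benjamini-Hochberg. DEGs had an adjusted p under 0.05 and a fold above 2. Genes without counts were tested with limma 3.58.1 on log2(TPM + 1), where TPM was at least 1 in all libraries. Where no library of a group held over 3 counts of a gene, the fold is a lower bound, computed with 3 counts per library there. Replicates of a group differed by more than sampling noise.

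The comparison, members and lists were chosen with earlier results of these data known. Genes named are list members, the 15 largest increases and 15 largest decreases of DEGs that reached a mean of 1 TPM and did not overlap, the 10 largest differences in TPM, and 5 genes without counts. LINC01833, RF02249, AC012354.1, SIX2, AL358613.2, TRHDE, FUT8, FUT8-AS1, PAXIP1, ATP2B1 and the antisense genes of the last 2 were named after their values were seen. On simulated counts with 200 changed genes, edgeR recovered 180 with 15 false calls among 17222 genes, DESeq2 170 with 14 among 17747, and limma 156 of 159 with 14 among 14965. The simulation gave every gene the same spread and used changes of fixed size, so these rates need not hold for the real libraries. Alternatives were upper-quartile normalization, DESeq2 1.42.0, no filter, limma on TPM, the 6 libraries alone, the replicate block, other thresholds and each library left out.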

Additional observations from a re-analysis of the deposited data

How the results depend on the processing

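Depth limits genes near the count minimum, such as DLX3, RAX and the lower bounds, and 3 libraries per condition limit the rest. None of 183 genes of the lists and naming rule that were followed, nearly all of them named, reversed in any of 1572 alternative values, of which 1538 kept their side of the threshold and 34 lost it, and of 1098 values without 1 library 36 lost it. Genes named above as not passing, such as LHX2, GLI1 and MEG3, were not among the 183. Most of the losses came with unfiltered limma, under which SOX3, DLX3, IRX5, NOG, NODAL, LEFTY2, SKIL, FGF2, FGF4, FGF8, SPRY1, DUSP4, PHLDA1, TFCP2L1, ALDH1A3, RDH10, COL2A1, DCX, MAGEA4 and LDHA did not pass, and LDHA, PHLDA1 and TFCP2L1 were also lost under both filtered limma fits. TFCP2L1 was lost with the 6 libraries alone and PHLDA1 with upper-quartile normalization. DEGs numbered 269 with limma on log2(TPM + 1) (146 higher, 123 lower), 385 on log2(TPM + 0.1) (198 higher, 187 lower), 419 without the TPM filter (193 lower) and 3701 with no fold threshold. At an adjusted p under 0.05 alone the same 3 limma fits gave 1026, 1009 and 889 lower genes. The neural plate median was 1.27 with DESeq2, 1.40 without the filter on counts, 1.01, 1.02 and 0.49 with limma, and 1.39 with the replicate block. In the order of the 3 limma fits, medians were 0.48, 0.49 and 0.44 for surface ectoderm, −0.19, −0.19 and −0.19 for pluripotency and 0.38, 0.38 and 0.37 for BMP. The BMP median was 0.52 with upper-quartile normalization, 0.42 with the 6 libraries alone and 0.55 with the replicate block. The WNT median was 0.45 with DESeq2, 0.44 without the filter and 0.18 with unfiltered limma, and the Hedgehog median 0.54 with limma and 0.43 unfiltered. Higher neural plate genes numbered 11 and 11 with filtered limma, and surface ectoderm genes 8, 8 and 10 with limma. Fewer genes pass the TPM filter by construction, and the cause of the other shifts was not tested. With each library left out in turn, DEGs ranged from 673 to 779 (285 to 334 higher, 380 to 445 lower). Medians ranged from 1.18 to 1.88 for the neural plate, 0.50 to 0.72 for BMP, 0.44 to 0.78 for Hedgehog and −0.063 to 0.034 for ATF4. Of genes without a count row 74 to 117 passed, and 2 to 15 mitochondrially encoded genes were lower. The replicate block gave 755 DEGs, 313 higher and 442 lower. Deviations of libraries with the same number had correlations of 0.038, 0.0083 and −0.013, within the −0.069 to 0.061 of libraries with different numbers. Such values cannot tell whether a number marks a shared plate or run.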
